A study of Mus musculus with 3 samples.

Results

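Krüppel-like factors are transcription factors of the same zinc finger family, and 10 of their genes were described here in J774A.1 cells, an established, transformed mouse macrophage-like line. The genes were Klf2, Klf3, Klf4, Klf6, Klf7, Klf9, Klf10, Klf11, Klf13 and Klf16, chosen by name with earlier results of these data known. All array probes that carry one of these names were taken. The members made up 10 of 27572 genes and 17 of 41174 probes on the array, and 17 genes on it carry a Krüppel-like factor name. Cells had been kept for 6 h in EBSS with 10 µM SB202190, in EBSS, or in RPMI medium, as the source name of each channel gives it. The series' design text can also be read as RPMI medium under all 3 treatments, and each ratio of EBSS against RPMI rests on the source names. EBSS is Earle's Balanced Salt Solution, which holds glucose and no amino acids, and SB202190 is an inhibitor of p38 MAP kinases. The RPMI medium, which holds amino acids, had 10% fetal bovine serum, and no serum is named for either EBSS group. The sources used here do not give whether EBSS without inhibitor held the inhibitor's solvent. Amino acids, serum and the other ingredients that set EBSS apart from RPMI cannot be told apart. No group had SB202190 in RPMI. An effect of the inhibitor in any medium therefore cannot be told apart from one that depends on EBSS.

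RNA of the 3 media was hybridised in pairs on 3 two-colour arrays of 1 slide, so that each medium was read once in Cy5 and once in Cy3. Each medium was 1 sample, no separate cultures are named, and no p-value between media was computed. Errors are technical, and a difference between single cultures cannot be told apart from an effect of the medium. Fewer cells with an RNA and less RNA per cell cannot be told apart either. In a given channel 40.1% to 49.9% of spots were well above background, and 10777 genes were so in all 6 channels. Of 10 macrophage markers 9 were well above background in all 6 channels, and Mrc1 in none, while of 16 markers of T cells, B cells, fibroblasts, epithelium and endothelium none was so in all 6 and 10 were in none.

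Krüppel-like factors bind GC-rich boxes and CACCC boxes in promoters through zinc fingers near the carboxyl end, and differ in the parts that recruit cofactors. Klf2, Klf4, Klf6 and Klf7 belong to a branch that mostly activates genes with the help of acetyltransferases. Klf3 belongs to a branch that represses through CtBP proteins. Klf9, Klf10, Klf11, Klf13 and Klf16 can recruit the SIN3A corepressor. In macrophages Klf2 is known to restrain inflammatory activation, Klf4 to act in monocyte differentiation and alternative activation, and Klf6 to favour inflammatory gene expression.

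In EBSS against RPMI, Klf4, Klf9 and Klf6 rose and Klf10 fell. In EBSS with SB202190 against EBSS, the same 3 genes, Klf4, Klf9 and Klf6, fell, and in EBSS with SB202190 against RPMI no member was counted. To be counted, a gene needed a log2 ratio of 1 or more in size, up or down. The array with both media and the path through the other 2 arrays each had to give 0.5 or more in that direction. One of the media also had to be well above background in each of its channels. By this rule 4 of 10 members were counted in EBSS against RPMI, beside 7.3% of all 11873 measured genes. In EBSS with SB202190 against EBSS 3 of 10 were counted, beside 3.81% of 11692 genes, and with SB202190 against RPMI 0 of 10, beside 3.89% of 11863 genes (1.47% higher and 2.43% lower). All 10 members were measured in each comparison. They were chosen with earlier results of these data known, which limits what their counts beside all genes can show. The comparisons share samples: EBSS stands on top of the first and below the second, so that an error in this 1 sample alone would give opposite signs in both.

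**Figure D1:**
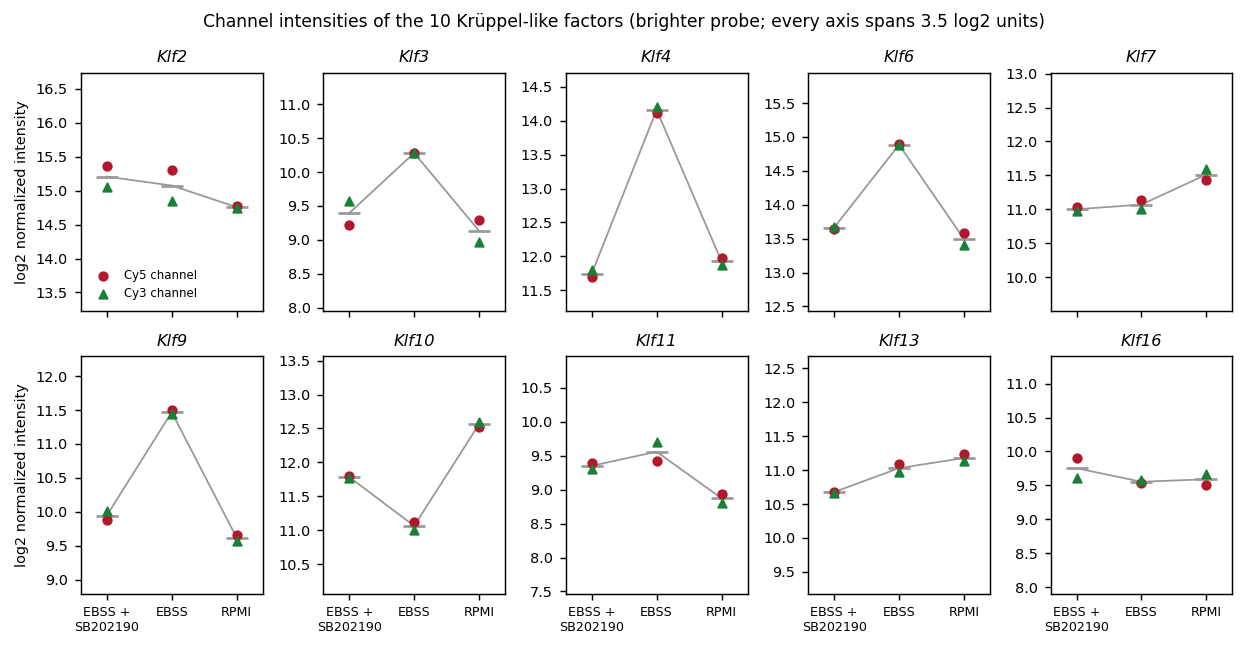
Normalized log2 intensity of each Krüppel-like factor (vertical axis, brighter or only probe) in EBSS with SB202190, EBSS and RPMI, with circles for the Cy5 channel, triangles for the Cy3 channel and a grey line through their means. Every panel spans the same range, and Klf4 in EBSS, at 14.12 and 14.20, stands above 11.69 and 11.79 with SB202190 and 11.98 and 11.87 in RPMI.

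Klf4 changed most. Its log2 intensities, Cy5 before Cy3 here and below, were 11.69 and 11.79 in EBSS with SB202190, 14.12 and 14.20 in EBSS, and 11.98 and 11.87 in RPMI. Both EBSS channels were above all 4 others, and both channels with SB202190 were a little below those in RPMI. The log2 ratio of EBSS against RPMI, fitted over the 3 arrays, was 2.20 ± 0.13 (technical SE, 1 sample per medium), or 4.59-fold, with 2.23 from the array of both media and 2.14 from the other 2. With SB202190 against EBSS it was -2.35 ± 0.13, or 5.11-fold lower, and with SB202190 against RPMI -0.15. In EBSS, 49 of the measured genes had a higher ratio than Klf4, and with SB202190 against EBSS 14 had a lower one. The gene had 1 probe, on chromosome 4 from 55549061 to 55549120 (mm8, minus strand). Probe positions are those in the files, on build mm8, and the exons or untranslated regions in which they lie were not analysed here.

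Klf9, a gene induced by glucocorticoids and thyroid hormone in several tissues, had the next largest rise. Its log2 intensities were 9.88 and 10.01 in EBSS with SB202190, 11.50 and 11.44 in EBSS, and 9.66 and 9.58 in RPMI. The levels with SB202190 lay slightly above those in RPMI, and the EBSS channels were well above both. The log2 ratio was 1.79 ± 0.11 in EBSS against RPMI, or 3.45-fold, and -1.49 ± 0.11 with SB202190 against EBSS, or 2.80-fold lower. A second probe gave 1.46 and -1.23 for these 2 comparisons. With SB202190 against RPMI the probes gave 0.30 and 0.23. On the second probe SB202190 overlapped RPMI. Chromosome 19 holds both probes, at 23232745 to 23232804 and 23231944 to 23232003 (mm8).

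Klf6, an early response gene in many cell types, was measured by a pair of probes. The brighter probe read 13.65 and 13.68 in EBSS with SB202190, 14.89 and 14.88 in EBSS, and 13.59 and 13.40 in RPMI. The second probe read 12.18 and 12.34, 13.55 and 13.61, and 12.26 and 12.25 in the same order of media. On both probes the EBSS channels were the highest. The log2 ratios of the brighter and the second probe were 1.35 ± 0.18 and 1.28 ± 0.13 in EBSS against RPMI, and -1.16 ± 0.18 and -1.28 ± 0.13 with SB202190 against EBSS. With SB202190 against RPMI they were 0.19 and -0.01. In folds the brighter probe was 2.54-fold higher in EBSS than in RPMI and 2.23-fold lower with SB202190 than in EBSS. The probes lie on chromosome 13 from 5869371 to 5869430 and from 5866706 to 5866765 (mm8).

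The stretch of 250 bases before the start site is shown for these 3 genes, since they were counted in the same direction in each of those 2 comparisons. The sequences are those of RefSeq on build GRCm38.p6, 5′ to 3′ on the strand of the gene, and capitals mark the motifs found.
Klf4, chr4:55532476-55532725, minus strand: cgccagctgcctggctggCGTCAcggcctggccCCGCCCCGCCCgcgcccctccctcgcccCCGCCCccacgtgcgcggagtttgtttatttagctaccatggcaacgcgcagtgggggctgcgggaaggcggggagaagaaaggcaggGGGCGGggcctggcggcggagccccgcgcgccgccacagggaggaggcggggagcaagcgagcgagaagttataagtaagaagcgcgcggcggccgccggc
Klf6, chr13:5861239-5861488, plus strand: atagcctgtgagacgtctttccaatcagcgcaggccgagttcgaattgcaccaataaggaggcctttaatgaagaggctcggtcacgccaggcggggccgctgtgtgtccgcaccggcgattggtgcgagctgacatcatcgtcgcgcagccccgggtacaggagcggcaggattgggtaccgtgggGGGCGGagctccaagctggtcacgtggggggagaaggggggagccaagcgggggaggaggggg
Klf9, chr19:23140976-23141225, plus strand: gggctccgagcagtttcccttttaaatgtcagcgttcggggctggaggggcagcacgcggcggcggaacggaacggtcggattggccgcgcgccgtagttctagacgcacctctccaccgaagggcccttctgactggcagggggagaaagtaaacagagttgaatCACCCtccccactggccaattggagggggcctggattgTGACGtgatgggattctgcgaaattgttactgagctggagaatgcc

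Motifs were searched on both strands of this window. They were the Krüppel-like factor box CACCC, the GC box GGGCGG, the cyclic AMP response element TGACGTCA and its shorter core TGACG, the C/EBP-ATF element TGATGNAAT of amino acid response genes, the MEF2 site, and the SRF CArG box. The full cyclic AMP response element contains the core, GC boxes of Klf4 and of Klf11 overlap one another, and a GC box overlaps a CACCC box by 1 base in Klf3 and in Klf13. A window was given for 8 of the 10 members, and Klf10 and Klf16 were not matched. A GC box lay in 7 of the 8, beside 32.7% of all 32851 windows of the same length. The share of G and C in the 8 windows ran from 59.2% to 78.4%. That share was not computed for all windows, and its part in the GC box counts was not tested. The core TGACG lay in 4 of 8 (17.8% of all windows) and CACCC in 5 of 8 (52.0%). None of the 8 held the full element (1.55% of all), the C/EBP-ATF element (0.816%), the MEF2 sequence searched (0.140%) or the CArG box (1.47%). Among the genes that rose, the Klf4 window held 4 GC boxes and 1 core, the Klf6 window 1 GC box, and the Klf9 window 1 CACCC box and 1 core. No motif searched was found in all 3 of these windows. Such a match is a description of the letters and not a site of binding.

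**Figure D2:**
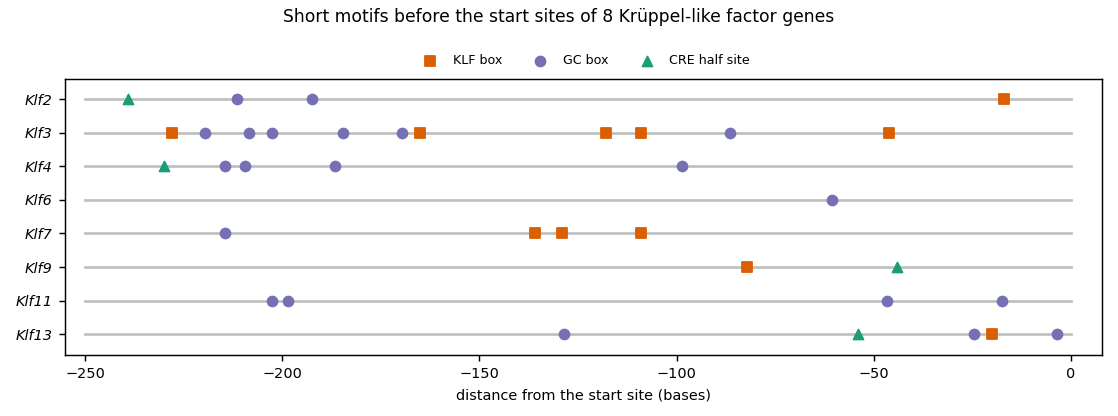
Position of the short motifs in the 250 bases before the start site (horizontal axis, bases from the start site) of 8 Krüppel-like factor genes, with squares for the Krüppel-like factor box, circles for the GC box and triangles for the core (the half-site in the legend) of the cyclic AMP response element. Klf3 held the most marks with 6 GC boxes and 5 Krüppel-like factor boxes, and Klf6 held 1 GC box.

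Of the remaining members of the activating branch, neither was counted in any comparison with the loess setting, and Klf2 was counted in EBSS against RPMI with median centring, where it lay 0.94 above the median of all measured genes. The brighter Klf2 probe read 15.37 and 15.05 in EBSS with SB202190, 15.31 and 14.85 in EBSS, and 14.77 and 14.74 in RPMI, so that SB202190 and EBSS overlapped. Its log2 ratio was 0.34 ± 0.18 in EBSS against RPMI, but the array of both media gave 0.07 and the other 2 arrays 0.88. The sum of its ratios around the loop of arrays, which is 0 without error or dye bias of the probe, was 0.81. The robust SD of this sum was 0.252 over genes well above background in all 6 channels, of any intensity. The ± 0.18 rests on the SD among probes of like intensity. Cy5 read above Cy3 in each medium on this probe, and dye bias was not tested. The second Klf2 probe, at 10.99 and 11.04, 10.45 and 10.37, and 10.44 and 10.61 in the same order of media, gave -0.11 ± 0.11. With SB202190 against EBSS the probes gave 0.01 ± 0.18 and 0.54 ± 0.11, and with SB202190 against RPMI 0.35 and 0.43. On the brighter probe the array of both media and the other 2 arrays gave -0.26 and 0.55 with SB202190 against EBSS, and 0.62 and -0.18 with SB202190 against RPMI. The array of both media and the other 2 arrays thus differed in sign in these 2 comparisons. A constant dye bias shifts them in opposite directions and cancels in the fitted ratio. Both channels of the brighter probe with SB202190 were above those in RPMI. Chromosome 8 holds both probes, at 75248851 to 75248910 and, for the second, 75250227 to 75250286 (mm8).

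Klf7, known for its part in the growth of sensory neurons, read 11.03 and 10.97 in EBSS with SB202190, 11.13 and 11.01 in EBSS, and 11.44 and 11.59 in RPMI. RPMI was the highest medium, and SB202190 and EBSS overlapped. The log2 ratio was -0.42 ± 0.11 in EBSS against RPMI, -0.15 with SB202190 against EBSS, and -0.57 ± 0.11 with SB202190 against RPMI. The second probe gave -0.40, -0.04 and -0.44 for the 3 comparisons. The probes lie on chromosome 1 from 64013046 to 64013105 and from 63967840 to 63967899 (mm8).

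Klf3, the CtBP-dependent repressor, missed the size that was required by little. Its log2 intensities were 9.22 and 9.57 in EBSS with SB202190, 10.29 and 10.28 in EBSS, and 9.29 and 8.98 in RPMI, with EBSS above the other media and SB202190 overlapping RPMI. The ratios of the brighter probe were 0.98 ± 0.11 in EBSS against RPMI, -0.73 ± 0.11 with SB202190 against EBSS and 0.25 with SB202190 against RPMI. The second probe gave 0.57, -0.47 and 0.09. With the log ratios of the scanner software Klf3 was counted in both comparisons with EBSS, at 1.84 against RPMI and -1.41 with SB202190. Under the loess setting used here it was not. The probes lie on chromosome 5, the brighter from 65108439 to 65108498 and the second within 65101464 to 65102044 (mm8).

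Among the genes whose proteins recruit SIN3A, Klf9 rose and Klf10 fell in EBSS. Klf10, which is induced early by TGF-beta, read 11.80 and 11.77 in EBSS with SB202190, 11.13 and 11.00 in EBSS, and 12.53 and 12.60 in RPMI. The media did not overlap, with EBSS lowest, RPMI highest and SB202190 between them. The log2 ratio in EBSS against RPMI was -1.50 ± 0.12, or 2.82-fold lower, with -1.53 and -1.44 on the 2 paths, and 77 measured genes were lower. With SB202190 against EBSS it was 0.67 ± 0.12 and with SB202190 against RPMI -0.83 ± 0.12, both short of the size required. With each array centred on its median in place of loess, the Klf10 ratio in EBSS was -0.40 and was not counted. All measured genes then had a median of 0.81, and Klf10 lay 1.21 below it. The only Klf10 probe lies on chromosome 15 from 38239377 to 38239436 (mm8, minus strand).

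Klf11, a relative of Klf10 that also responds to TGF-beta, read 9.40 and 9.31 in EBSS with SB202190, 9.42 and 9.70 in EBSS, and 8.94 and 8.80 in RPMI. Both EBSS media were thus above RPMI, and they did not overlap each other, by a narrow margin. The ratios were 0.74 ± 0.10 in EBSS against RPMI, -0.13 ± 0.10 with SB202190 against EBSS and 0.61 ± 0.10 with SB202190 against RPMI. The second probe gave 0.82, -0.33 and 0.48, and it was well above background in 5 of 6 channels. With the scanner software's log ratios it was counted as higher than in RPMI in EBSS (2.21) and in EBSS with SB202190 (1.81). The probes lie on chromosome 12 from 25251538 to 25251597 and from 25249569 to 25249628 (mm8).

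Klf13, which drives CCL5 expression in T cells, read 10.68 and 10.67 in EBSS with SB202190, 11.09 and 10.97 in EBSS, and 11.23 and 11.13 in RPMI. SB202190 was the lowest medium, and EBSS lay narrowly below RPMI. Its ratios were -0.18 ± 0.11 in EBSS against RPMI, -0.34 with SB202190 against EBSS and -0.52 ± 0.11 with SB202190 against RPMI. The second Klf13 probe was well above background in no channel, and its ratios are not read. The positions of the Klf13 probes in the files, on chromosome 7 from 63770693 to 63816921 and from 63770739 to 63803670 (mm8), are spans far longer than those of most other probes.

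Klf16 read 9.90 and 9.61 in EBSS with SB202190, 9.53 and 9.57 in EBSS, and 9.51 and 9.67 in RPMI, and EBSS and RPMI overlapped. The ratios were 0.09 ± 0.11 in EBSS against RPMI, 0.11 with SB202190 against EBSS and 0.20 with SB202190 against RPMI. In EBSS against RPMI, the ratio of Klf16 was the nearest to 0 of the 10 members. Its 1 probe lies on chromosome 10 from 79970458 to 79970517 (mm8).

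**Figure D3:**
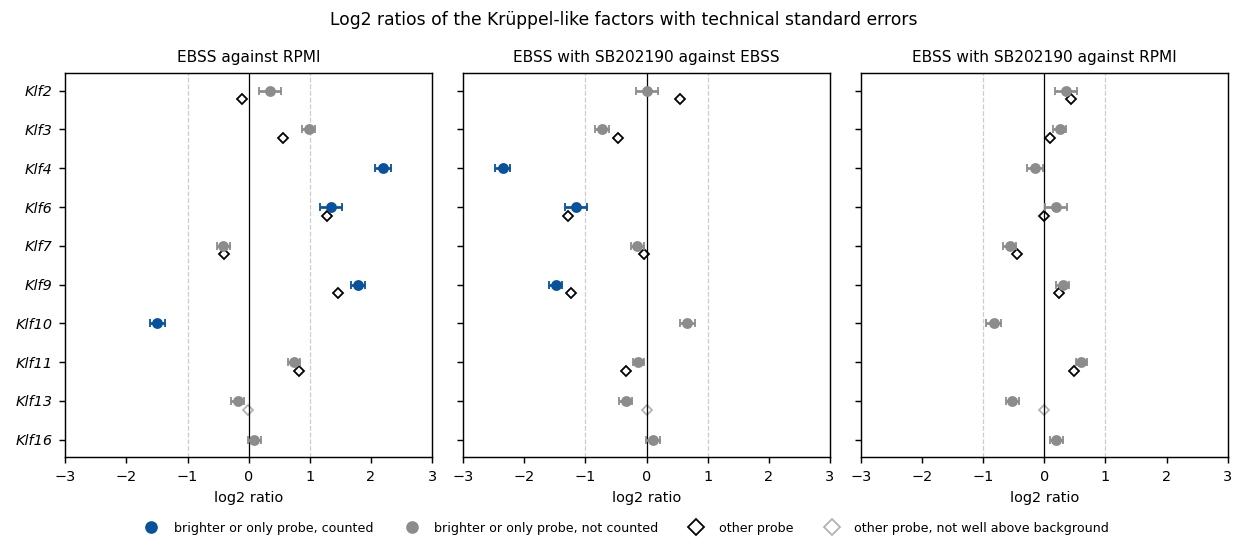
Log2 ratios (horizontal axis) of the 10 genes in EBSS against RPMI, EBSS with SB202190 against EBSS, and EBSS with SB202190 against RPMI. Circles with technical standard errors are the brighter or only probe, blue where the gene was counted, diamonds are second probes (pale for Klf13, not well above background), and dashed lines mark a ratio of 1 in size. Klf4, Klf6 and Klf9 lie above 1 in the first panel, below -1 in the second and between -0.15 and 0.30 in the third.

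The median log2 ratio of the 10 members was 0.54 in EBSS against RPMI, beside 0.00 for all measured genes, and 7 of 10 were above 0, beside 50.4%. For SB202190 against EBSS the median was -0.24, beside 0.00, and 3 of 10 were above 0, beside 5850 of 11692 genes. For SB202190 against RPMI it was 0.19, beside 0.01, with members from -0.83 for Klf10 to 0.61 for Klf11, and 6 of 10 were above 0, beside 52.8%. The members counted in EBSS were 3 higher and 1 lower, beside 4.48% of all measured genes higher and 2.82% lower. Of the members, SB202190 against EBSS had 3 lower and none higher, beside 2.93% and 0.889%. Klf4, Klf6 and Klf9 were counted in both of these comparisons under all 10 alternatives of processing that were tried. Some of these alternatives could not remove a count or shared their ratios with another. With the scanner software's log ratios the members counted in EBSS were 5 higher and 1 lower, beside 962 and 1094 of all 11873 measured genes. With median centring they were 6 higher and none lower, beside 4252 and 23 of all 11873. Of all genes counted in EBSS against RPMI 61.4% were higher, but 46.8% with the scanner's log ratios, 53.2% without background correction and 99.5% with median centring. For SB202190 against EBSS this share was 23.3%, with 50.3% for the scanner's log ratios, 33.3% without background correction, 33.6% on the other 2 arrays alone, 36.0% with both thresholds lowered to 0.6 and 0.3 and 2.29% with median centring. For SB202190 against RPMI it was 37.7%, and 62.8% with median centring.

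**Figure D4:**
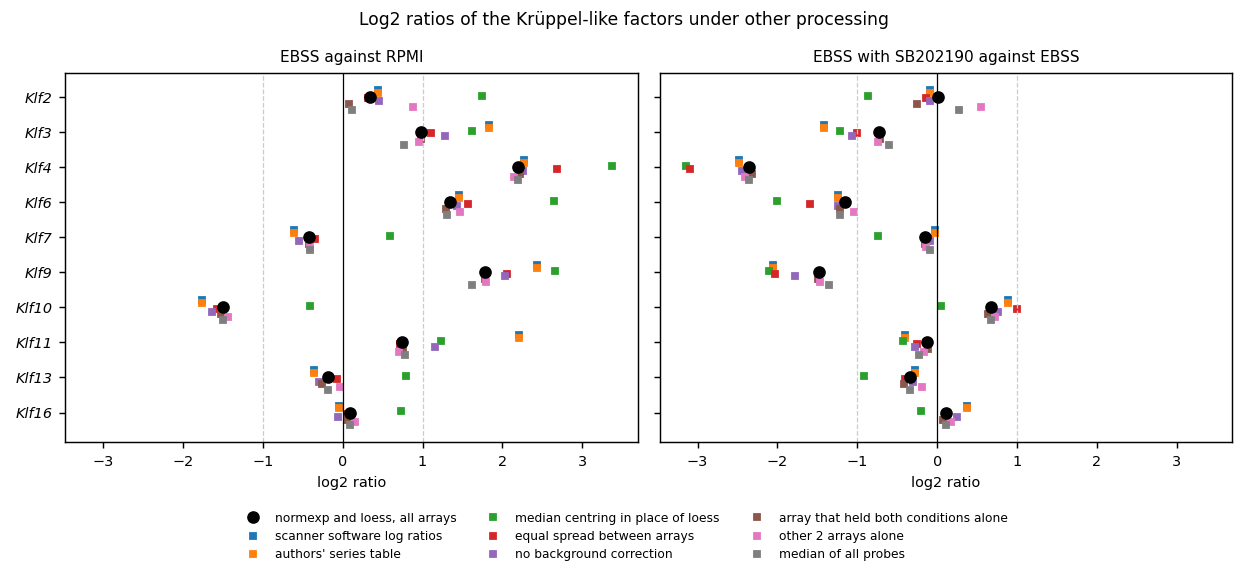
Log2 ratios (horizontal axis) of the 10 genes in EBSS against RPMI and in EBSS with SB202190 against EBSS, with the setting used in the text as black circles and 8 other ways of processing as coloured squares. Klf4 ranged from 2.14 to 3.37 in the first panel and from -3.15 to -2.32 in the second, while Klf11 ranged from 0.71 to 2.21 in the first.

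Genes whose 2 ratios, EBSS against RPMI and EBSS with SB202190 against EBSS, were nearest to those of a counted member were looked for among 10776 others over the 3 media. Nearest to Klf4 were Bcl2a1b, a survival gene of the BCL2 family with near-identical copies that 1 probe may not separate (2.21 and -2.32), and the chemokine gene Ccl3 (2.22 and -2.40). Nearest to Klf6 were Pnpla8, a phospholipase gene (1.33 and -1.14), and Gm5662 (1.33 and -1.18). Klf9 was followed by Chac1, a glutathione-degrading enzyme gene of the amino acid response (1.74 and -1.42), and Mdm2, the p53 ubiquitin ligase gene (1.87 and -1.49). For Klf10 the nearest with a gene symbol was Pde4a, a cyclic AMP phosphodiesterase gene (-1.44 and 0.65). With 3 media and shared samples, such likeness is coarse.

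The other Krüppel-like and Sp factors, which bind the same kind of boxes, included 1 counted gene. Of 15 such genes 6 were measured. In EBSS against RPMI 0 were counted, beside 7.3% of all measured genes, and with SB202190 against EBSS 1, Sp1, beside 3.81%. Sp1 read 10.36 and 10.45 in EBSS with SB202190, 11.48 and 11.37 in EBSS, and 10.95 and 10.97 in RPMI, and its log2 ratio with SB202190 against EBSS was -1.03 ± 0.11. The remaining Krüppel-like genes measured, Klf1 and Klf8, had ratios of -0.03 and 0.37 in EBSS and 0.08 and -0.20 with SB202190 against EBSS. Among 10 cofactor genes 1, Crebbp, was counted in EBSS against RPMI, beside 7.3% of all measured genes. Crebbp, which encodes the acetyltransferase CBP, was at 1.21 ± 0.11, with 0.05 for its other probe. Its relative Ep300 was at 0.56, with 0.17 for its other probe. The corepressor genes Ctbp1 and Sin3a were at -0.23 and 0.30. Ctbp2 was at -0.65 and Sin3b at 0.03, with -0.32 and 0.51 for their other probes.

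Of 11 kinase and transcription factor genes known to act upstream of Krüppel-like factors 9 were measured, and 0 were counted in EBSS against RPMI or with SB202190 against EBSS. Of all measured genes 7.3% and 3.81% were counted there. Mapk7 encodes the kinase ERK5, which induces Klf2 and Klf4 through MEF2 factors. Its ratios in these comparisons were 0.63 and -0.71, with 0.74 and -0.79 for its other probe. The MEF2 genes Mef2a, Mef2c and Mef2d were at -0.26, -0.86 and 0.41 in EBSS against RPMI. With SB202190 against EBSS they were at -0.74, -0.16 and -0.59. In EBSS against RPMI the other probes gave 0.21 and 0.45 for Mef2a, and 0.01 and 0.74 for Mef2d. Foxo1 was at -0.39 in EBSS against RPMI and 0.90 with SB202190 against EBSS, with -0.38 and 0.41 for its other probe. With SB202190 against RPMI 2 of 9, Mef2c (-1.02 ± 0.11) and Mef2a, were lower, beside 2.43% of all measured genes. Mef2a, counted at a ratio barely past the size required, had -0.16 and -0.07 on its other probes. Among 7 genes of ubiquitin ligases that act on these factors, 2 rose in EBSS against RPMI, beside 4.48% of all measured genes. They were Fbxo32 (1.21 ± 0.11) and Vhl (1.11 ± 0.11). Fbxo32 fell with SB202190 against EBSS (-1.08), beside 2.93% of all measured genes. Vhl was higher with SB202190 than in RPMI (1.03), beside 1.47%.

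Of 14 genes reported elsewhere as targets of single members, 11 were measured in EBSS against RPMI. Of these 0 were counted, beside 7.3% of all measured genes, and their median was -0.04, beside 0.00. For SB202190 against EBSS 9 were measured and 2 fell, Plau (-2.34 ± 0.11, with -0.69 for its other probe) and Cd14 (-1.56 ± 0.18), around a median of -0.81. Of all measured genes 2.93% fell in that comparison, around a median of 0.00. Plau, the urokinase gene, is a reported target of Klf6, and Cd14, the lipopolysaccharide coreceptor gene, of Klf4. In EBSS against RPMI, where Klf6 and Klf4 rose, Plau and Cd14 had ratios of 0.52 (0.22 for the other Plau probe) and -0.39. With SB202190 against RPMI 3 of 11 were lower, beside 2.43% of all measured genes, around a median of -0.37, beside 0.01. They were Cd14 (-1.94), Plau (-1.82, with -0.47 for its other probe) and S1pr1 (-1.47). S1pr1, a reported Klf2 target, encodes a sphingosine phosphate receptor. Lgals3, which Klf3 represses, was at 0.82 in EBSS against RPMI and -0.81 with SB202190 against EBSS. Klf3 was at 0.98 and -0.73 there, so Lgals3 moved in the same direction as its reported repressor. Ccl5, which Klf13 drives in T cells, was at 0.30 and -0.90, with 0.12 and -0.56 for its other probe. Cdkn1a was at 0.44 and -0.77, and S1pr1 at -0.52 and -0.96, in the same comparisons. Links between the factors and these genes were not tested.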

How the data were processed

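Total RNA of 3 media was labelled with Cy5 or Cy3, per the labels, and hybridised on 3 Agilent whole mouse genome arrays. In the order Cy5, Cy3, array 1 carried RPMI and EBSS, array 2 EBSS and EBSS with SB202190, and array 3 EBSS with SB202190 and RPMI. The submitters' processing notes and headers name Agilent Feature Extraction 9.5.3.1 as the software that read the spots. The deposited mean and local background intensities are not normalized, per the file headers. The deposited processed intensities are background-subtracted, spatially detrended and dye-normalized, and the deposited log10 ratio is Cy5 over Cy3 of these, per the file headers. It is 0 where both channels were surrogates (30.3% to 33.9% of spots). The authors' series table holds log2 ratios, Cy5 over Cy3, made from the processed intensities, as its comparison with them showed (correlation 1.00), with medians of -0.0854, -0.0766 and -0.166. Deposited marks of other kinds flag spots as well above background, saturated (none was), outlier (136 to 178 per array) or control (1639).

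From these, mean intensities were corrected with normexp (offset 50) and loess in limma 3.58.1 (R 4.3.3), control and outlier spots were left out, and spots of a probe were averaged. Later work was done in Python 3.11.15, numpy 2.4.6, pandas 2.3.3 and matplotlib 3.10.9. Intensities per channel were also aligned between arrays by quantiles of the mean intensity (Aquantile), so that their differences can depart from the fitted ratios. For each gene the probe with the highest mean intensity was used. Ratios were fitted by least squares to the loop, in which a constant dye bias of a probe cancels. Technical SEs were derived from the loop sums, using their robust SD within 30 intensity bins, and a gene's own paths can differ by more. With 3 arrays, their number limits the precision. The fit was tested on simulated data. Arrays share a slide, so slide could not differ between media. Probes of other genes were named through accessions (24375 of 41174), symbols or synonyms in a RefSeq table of GRCm38.p6, and 8072 kept the name in the files. All 10 members and all probes were reported. Of the related lists, up to 3 counted genes per comparison with the largest ratios were named by rule, and other list members served as examples chosen with their values known. The members and lists were chosen with earlier results of these data known. In all, 10 alternatives of processing were tried.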

Additional observations from a re-analysis of the deposited data

How the results depend on the processing

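Klf4, Klf6 and Klf9 kept their direction and their count in EBSS against RPMI and in EBSS with SB202190 against EBSS under all 10 alternatives, and no counted ratio of a member changed sign. The 10 are not independent tests. Lowering the thresholds, or keeping probes not well above background, could not remove a counted gene. The scanner's log ratios and the authors' table gave nearly the same member ratios. For a gene with 1 probe, such as Klf4 or Klf10, the median of all probes changes nothing. Klf10 was counted as lower in EBSS under 9 of 10, all but median centring. Klf3 was counted as higher in EBSS under 6 and as lower with SB202190 against EBSS under 5, Klf11 as higher in EBSS under 5, and Klf2 as higher in EBSS under 1, median centring. With the size lowered to 0.6 and the value required on each path to 0.3, 5 members were counted with SB202190 against EBSS and 2 with SB202190 against RPMI (Klf10 and Klf11). Of the members, 1 (Klf11) was counted with SB202190 against RPMI by the scanner's log ratios or the authors' table. In EBSS against RPMI the number of all genes counted was 867, but 2056 with the scanner's log ratios or the authors' table, 4275 with median centring and 2241 with both thresholds lowered. With SB202190 against EBSS it was 446, but 1554 with the scanner's log ratios or the authors' table, 787 with median centring, 878 with equal spread, 732 without background correction and 1552 with both thresholds lowered. With SB202190 against RPMI it was 462, but 1248 with the scanner's log ratios or the authors' table, 242 with median centring or with equal spread, and 1434 with both thresholds lowered. Lower thresholds count more genes by construction, and for the other settings the cause was not tested. Median centring moved the median of all measured genes to 0.81, -0.45 and 0.34 in the 3 comparisons. Relative to it, EBSS against RPMI gave 2.56 for Klf4, 1.84 for Klf6, 1.84 for Klf9, -1.21 for Klf10 and 0.94 for Klf2. No paired analysis was possible because each medium was 1 sample, and no replicate could be left out. Signal over background limits the second probes of Klf11, well above background in 5 of 6 channels, and of Klf13, in none.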
